A study of Mus musculus with 4 samples.

Results

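Immune cells made up 2391 of the 21809 cell barcodes recovered from the olfactory mucosa of 4 mice. Neutrophils at several stages, B cells and their precursors, macrophages, T cells, natural killer (NK) cells and dendritic cells could be told apart by their genes. The immune cells were the barcodes whose deposited preliminary cluster was named immune, a single label that covers 7 clusters, and they were set aside by the authors before the sensory neurons were studied. They are described here against the 15859 retained barcodes (neurons, their precursors and the epithelial cells around them) and, among themselves, by a new clustering. All 4 animals were male C57BL/6 mice aged 8 weeks and formed a single group with 1 library each (n = 4), so no condition was compared. The tissue was the main olfactory epithelium, taken from the nasal cavity straight after killing with pentobarbital and dissociated with papain. Cells were then sorted for Hoechst staining, which marks nuclei, and against DRAQ7, which enters dead cells. The labels mention no flushing of the vessels and no removal of bone, so immune cells of the epithelium, of the tissue under it, of blood and of marrow cannot be told apart by dissection.

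Neutrophils are short-lived phagocytes that make their granule proteins in order while they mature in the marrow, with proteases such as elastase first, antimicrobial proteins such as lactoferrin next and gelatinases last. Macrophages live in the tissue and clear debris, including that of the olfactory neurons, which are replaced throughout life. Dendritic cells carry antigen to T cells, and NK cells kill stressed cells with granzymes and perforin. B cells rearrange their immunoglobulin genes in the marrow, first the heavy chain with the surrogate light chain proteins Vpreb1 and Igll1 and then a light chain, kappa or lambda. Plasma cells of mucosal tissue secrete immunoglobulin A joined by the J chain.

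The label was first checked against 3 genes: Ptprc, which encodes CD45, the phosphatase on the surface of nearly all white blood cells, Cd74, the chaperone of MHC class II, and Tyrobp, a signalling adaptor of myeloid and NK cells. At least 1 UMI (unique molecular identifier, which counts each captured transcript once at its 3′ end) of these genes was present in 89.6% of the immune barcodes and in 4.39% of the retained barcodes. At least 2 of the genes were present in 58.1% and 0.221%. The levels below are UMIs per 10000 UMIs, from the sum over a group of barcodes in each mouse, so that a level in all immune cells mixes the share of a cell class with its content. Ptprc was at 5.66, 3.58, 4.09 and 4.39 in the immune cells of mice 1 to 4 and between 0.00374 and 0.0205 in the retained cells. Tyrobp was at 22.2, 14.7, 15.4 and 19.5, against 0.0243 to 0.0471. Cd74 was at 62.9, 31.7, 47.3 and 48.0, against 0.111 to 0.933. For each of the 3 genes the lowest immune value lay far above the highest retained value, and the retained value of Cd74 was highest in mouse 3. The preliminary clusters were made from these same genes, so these contrasts describe the label and were not tested.

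The immune share differed between mice by more than the counting error. It was 7.07% of the barcodes in mouse 1 (379 of 5364, Wilson 95% interval 6.41 to 7.78), 15.6% in mouse 2 (889 of 5696, 14.7 to 16.6), 12.6% in mouse 3 (596 of 4746, 11.6 to 13.5) and 8.78% in mouse 4 (527 of 6003, 8.09 to 9.52). No interval overlapped another, and the mean was 11% ± 3.83 (SD, n = 4). The intervals cover counting error only. Blood cells, which have a deposited label of their own, were also at their highest share in mouse 2, at 3.00%, against 0.690, 0.716 and 1.20% in mice 1, 3 and 4. Whether blood carried into the sample bears on the immune share was not tested. A total of 54 barcode sequences occurred in more than 1 library, and 12 of these belonged to an immune cell at least once. Library totals ranged from 23157467 to 32382702 UMIs.

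Immune barcodes held fewer transcripts than retained ones. The median UMI count per immune barcode was 2800, 1848, 2624.5 and 1812 in mice 1 to 4, beside 6070, 4503.5, 6939 and 4223 in retained barcodes. This is a ratio of 0.419, with the immune value lower in 4 of 4 mice (exact two-sided sign-flip permutation test over mice, p = 0.13, the smallest value that 4 mice allow, so that p < 0.05 is out of reach). The median number of detected genes was 1058 ± 153 against 2416 ± 365 (SD, n = 4 mice), again lower in 4 of 4. Retained barcodes had to pass limits of 1000 genes and 10% mitochondrial UMIs that immune barcodes did not face. Only 1238 immune barcodes (51.8%) would have passed, since 1146 (47.9%) had fewer than 1000 genes and 92 (3.85%) were over 10% mitochondrial UMIs. Among those 1238 the difference in median UMIs shrank to -0.28 ± 0.33 on the log2 scale (SD over mice, exact permutation p = 0.25), while that in genes was -0.46 ± 0.23 (exact permutation p = 0.13). The median mitochondrial percentage was 1.51 ± 0.265 against 1.26 ± 0.194 (SD, n = 4 mice), higher in 4 of 4 mice, and with the limits on both sides the log2 difference was -0.028.

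Across genes, the 4 largest ratios of immune to retained cells were those of S100a8, S100a9, Camp and Ngp, genes of neutrophils. Of 20843 genes with at least 20 UMIs, 1238 (5.94%) were at least 4-fold higher in immune than in retained cells in each of the 4 mice, and 1572 (7.54%) were at least 4-fold lower, with 0.01 UMIs per 10000 added to both sides. Because the clusters rest on these genes, the counts are descriptions with no test. The median log2 ratio over all genes was -0.41. Of the genes past the limit 44.1% were higher, and this became 55.2% with TMM scaling (1391 higher, 1131 lower) and 57.3% with DESeq2 size factors (1416 higher, 1057 lower), which shifted the median of all genes by 0.15 and 0.17. The shares of 5.94% and 7.54% are the background for the counts of each gene group below.

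The 12 genes with the largest ratios were S100a8, S100a9, Camp, Ngp, Igkc, Chil3, Cd52, Fcer1g, Retnlg, Wfdc21, Tyrobp and Ly6c2. Retained means of Chil3, Wfdc21 and Ly6c2 were 0.0071, 0.00696 and 0.00884, below the 0.01 added to both sides. The ratios and ranks of these genes therefore depend on that constant. S100a8 and S100a9 together form calprotectin, a zinc-binding protein that fills the cytosol of neutrophils. S100a8 was at 200, 162, 175 and 201 UMIs per 10000 in immune cells of mice 1 to 4 and between 0.0776 and 0.313 in retained cells, a log2 ratio of 10.39 ± 0.97 (SD over mice). S100a9 was at 225 ± 20.7 against 0.199 ± 0.12. Camp, the cathelicidin precursor, was at 38.4, 68.3, 56.5 and 60.3, against 0.00981 to 0.0808. Ngp, a cystatin-like granule protein, was at 41.2 ± 7.10, Chil3, a chitinase-like lectin, at 8.91 ± 0.946 and Retnlg, a resistin-like secreted protein, at 10.3 ± 5.67. Cd52, a small surface glycoprotein of white cells, was at 19 ± 2.15, and Fcer1g, the signalling chain shared by Fc receptors, at 14.7 ± 3.52. The kappa light chain Igkc varied most, at 88.8, 19, 42.8 and 15.2. Its mean log2 ratio of 9.52 dropped to 8.39 without 2 plasma cell barcodes described further on.

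Genes with the most negative ratios belonged to the neurons and the epithelium. They were 4930469K13Rik, Cyp2g1, Coch, Ascl3, Gap43 and Smbd1. Cyp2g1, a cytochrome P450 of the supporting cells, was at 0.0747 ± 0.0636 in immune cells and 2.86 ± 0.60 in retained cells. Ascl3, a transcription factor of ionocyte-like microvillar cells, was at 0.0509 ± 0.0185 against 2.05 ± 0.31. Gap43, a growth cone protein of immature neurons, was at 0.0788, 0.497, 0.0218 and 0.0539 against 3.06 to 3.75, so that mouse 2 had the highest immune value.

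All 10 genes of the general immune list passed the limit, with a median log2 ratio of 7.86 beside -0.41 for all genes. Among them Coro1a, an actin regulator, was at 13.8 ± 1.12 and Laptm5, a lysosomal protein, at 7.64 ± 0.852. All 10 genes of MHC class II presentation passed too, with a median of 6.36. H2-Aa, the alpha chain that displays peptides, was at 20.6, 7.69, 16 and 14.7 in immune cells. Mouse 2 had the lowest value of H2-Aa and of Cd74, and mouse 3 had the highest retained values of both, 0.263 for H2-Aa. Of 9 listed signalling adaptors of immune receptors 8 passed, and Cd247, the zeta chain of the T cell receptor, did not, at 0.0820 ± 0.0617. The log2 ratio of Cd247 was 1.96, 2.25, 4.02 and 2.62 in mice 1 to 4, so it missed the 4-fold limit in mouse 1 alone. Of 9 Fc receptor genes 6 passed. Fcgrt, which recycles immunoglobulin G, was 1.66 ± 0.19 higher on the log2 scale, and Pigr, which carries immunoglobulin A across epithelia, was at 0.0132 in immune cells and 0.0364 in retained cells.

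The weapons of phagocytes were among the most complete groups. All 14 genes of the granule list, which also holds the cytosolic S100a8 and S100a9, were higher, with a median log2 ratio of 7.88, and so were all 6 genes of the NADPH oxidase, the enzyme that makes superoxide. Cybb, its catalytic subunit, was nearly level across mice, at 5.30, 5.16, 5.39 and 4.93. The granule genes differed in how far they were shared with the epithelium. Lyz2, a lysozyme, was at 72.7 ± 5.39 in immune cells, but reached 13.3 ± 4.14 in the retained Mv2 microvillar cells. Of 8 measured complement genes 7 were higher, led by C1qa, C1qb and C1qc, the recognition unit of the classical pathway. C1qa was at 10.6, 2.94, 3.83 and 8.41, with the lower values in mice 2 and 3. Of 11 measured Toll-like receptor genes and adaptors 7 were higher, with Tlr2, a sensor of bacterial lipopeptides, at 0.570 ± 0.174. Tlr3, a sensor of double-stranded RNA, was at 0.0557 in immune cells and 0.0444 in retained cells.

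Signalling molecules were more mixed. Of 15 measured cytokine genes 10 were higher, and Il1b, the inflammatory interleukin-1 beta, was the most abundant, at 21, 4.62, 10.7 and 19.4. Il33, an alarm signal of barrier epithelia, was in the other direction without passing the limit in every mouse, at 0.0175 ± 0.0153 against 0.139 ± 0.012, and its highest level in a retained type was 2.25 in the basal cell group HBC2. Of 19 measured chemokine genes 13 were higher. Cxcl2, which attracts neutrophils, was at 6.33 ± 3.86, and Ccl5, made by NK and T cells, was at 5.87 ± 1.74. Cxcl12, a retention signal for Cxcr4-bearing cells, was instead at 0.00328 in immune cells and 1.51 ± 0.502 in basal cells of group HBC1. Its receptor Cxcr4 was among the 9 of 13 chemokine receptors that were higher. Of 12 interferon response genes 5 were higher and 1, Ifit1, was lower, at 0.0951 ± 0.0244 against 0.695 ± 0.046. Of 20 blood cell transcription factors 12 were higher, led by Spi1, which encodes the myeloid regulator PU.1, at 3.31 ± 0.46 against 0.00697 ± 0.0036. Ebf1 acts in both B cells and olfactory neurons, and its levels were 6.63 ± 2.81 and 10.7 ± 0.41. Of 12 early genes that dissociation can induce, 2 passed, Junb at 11.8 ± 2.72 against 2.47 ± 0.76 and Ier3 at 5.2 ± 1.54 against 0.997 ± 0.31, while Fos was at 8.43 ± 2.01 against 5.96 ± 1.90.

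**Figure D1:**
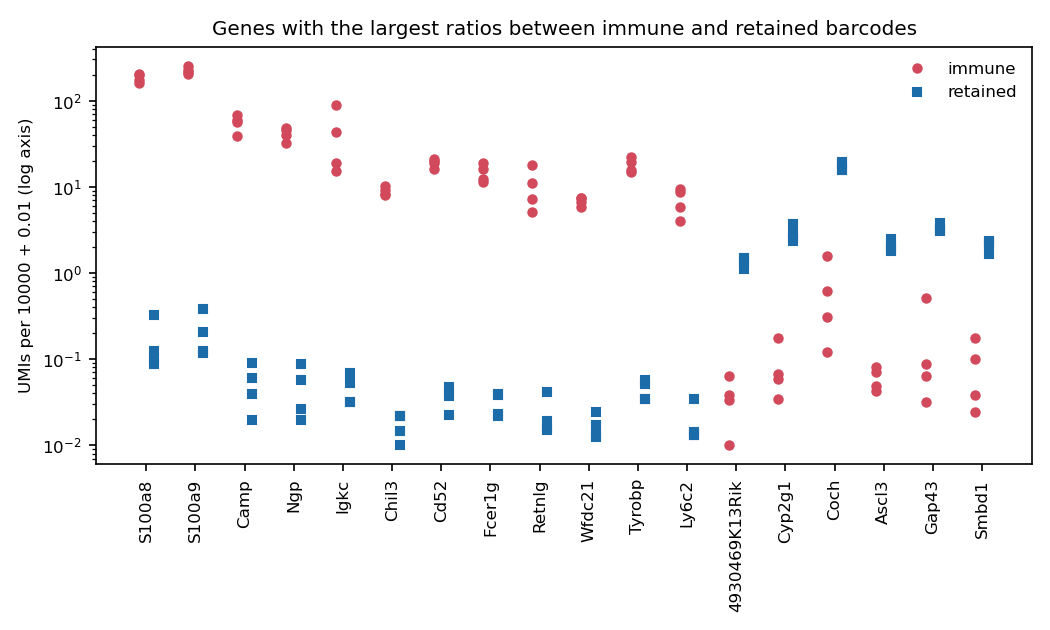
UMIs per 10000, with 0.01 added, on a log axis (y) for the 12 genes with the largest and the 6 with the most negative ratio between immune and retained barcodes (x), with 1 point per mouse in each group (n = 4). The groups do not overlap for any of the 18 genes, which the choice of genes fixes, and the immune values of Gap43 span 0.0218 to 0.497.

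The 250 bases before the start site of 5 genes of the granule list are printed because their promoters differ in the short motifs they hold. With that choice they do not stand for the whole list. Sequences are those of RefSeq (GRCm38.p6), 5′ to 3′ on the strand of the gene. Capitals mark matches, on either strand, to GAGGAAGT, a core of the sites bound by PU.1, or to TTGCNNAA, a core of sites bound by the C/EBP factors. The positions are chr10:79886062-79886311 for Elane, chr10:79879417-79879666 for Prtn3, chr11:87793534-87793783 for Mpo, chr3:90668821-90669070 for S100a8 and chr9:110419558-110419807 for Ngp, all on the plus strand.
Elane: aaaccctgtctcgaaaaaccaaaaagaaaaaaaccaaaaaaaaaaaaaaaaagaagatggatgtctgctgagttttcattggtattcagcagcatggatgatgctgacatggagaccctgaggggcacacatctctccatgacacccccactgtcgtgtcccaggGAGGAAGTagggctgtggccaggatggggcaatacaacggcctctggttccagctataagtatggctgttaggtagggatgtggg
Prtn3: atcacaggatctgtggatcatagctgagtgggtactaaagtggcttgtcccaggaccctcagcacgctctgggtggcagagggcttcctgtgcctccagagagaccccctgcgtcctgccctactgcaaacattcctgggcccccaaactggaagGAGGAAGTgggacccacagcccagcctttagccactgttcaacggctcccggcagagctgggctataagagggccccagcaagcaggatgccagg
Mpo: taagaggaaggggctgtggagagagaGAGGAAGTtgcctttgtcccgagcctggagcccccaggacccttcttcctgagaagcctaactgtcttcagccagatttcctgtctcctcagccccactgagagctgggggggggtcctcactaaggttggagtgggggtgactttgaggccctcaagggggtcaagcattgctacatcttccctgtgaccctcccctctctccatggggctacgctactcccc
S100a8: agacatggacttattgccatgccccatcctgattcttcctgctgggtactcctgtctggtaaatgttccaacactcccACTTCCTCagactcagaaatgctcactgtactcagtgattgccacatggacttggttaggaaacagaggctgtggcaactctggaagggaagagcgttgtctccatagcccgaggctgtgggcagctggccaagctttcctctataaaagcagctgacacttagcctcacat
Ngp: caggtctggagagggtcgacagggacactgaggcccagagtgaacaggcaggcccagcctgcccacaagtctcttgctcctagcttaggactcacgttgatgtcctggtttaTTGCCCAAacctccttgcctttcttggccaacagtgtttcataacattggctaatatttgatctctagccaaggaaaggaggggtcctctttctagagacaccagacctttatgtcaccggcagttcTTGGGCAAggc
Elane, Prtn3 and Mpo encode proteases and the peroxidase of the first granules, and each has 1 GAGGAAGT match, at -85, -95 and -224 from the start site. S100a8 holds the match on the opposite strand, where it reads ACTTCCTC, at -172. Ngp has no such match but has 2 matches to TTGCNNAA. In windows from 250 bases before to 50 after the start, 32851 RefSeq promoters were searched, with 1 chromosome left out. GAGGAAGT occurred in 3.20% of them and in 3.00% of the promoters of the genes compared, of which 13671 matched by symbol. Promoters of genes higher in immune cells held it in 9.83% (119 of 1210 promoters, from 936 of the 1238 genes that matched by symbol). TTGCNNAA occurred in 10.8% of all promoters searched, in 9.24% of those of the genes compared and in 13.3% of those of the higher genes. Of 13 genes of the granule list with a promoter entry 5 held GAGGAAGT and 5 held TTGCNNAA. Ctsg, another protease of the first granules, held neither, and Mmp8 held both. A match is a description of letters and not of a bound site.

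Clustering of the 2391 immune barcodes gave 21 groups, of which 12 could be named from their markers and 9 are called by their leading genes. A name required at least 3 markers of a class at 0.5 UMIs per 10000 or more and 4-fold over the other immune cells, with at least 1 among the 10 genes of largest ratio and no other list with more there. Cluster 8, which met this for mature olfactory neurons, was left unnamed because its deposited label is immune. Cluster 5 had 3 of 5 monocyte markers 4-fold and 2 in the top 10, but 4 haemoglobin genes of the erythroid list were in its top 10. It thus failed the last condition for monocytes. By these counts it met the rule for erythroid cells, but its haemoglobin transcripts rested on few barcodes, as given below, and it was left unnamed. The shares below are of the immune barcodes of each mouse. The leading genes describe the groups, since the groups were made from them. Unnamed clusters held 43.7% ± 3.64 (SD, n = 4), B cell-like clusters 18.4% ± 4.60, neutrophil-like clusters 12.2% ± 3.67, the macrophage-like cluster 8.85% ± 3.37, the T cell-like cluster 4.01% ± 1.15 and the NK cell-like cluster 2.94% ± 0.625. The neutrophil precursor-like cluster held 3.79% ± 1.82, the dendritic cell-like cluster at 2.49% ± 1.84, the B cell precursor-like clusters at 1.99% ± 1.87 and the immature neutrophil-like cluster at 1.62% ± 0.990. The B cell precursor-like share was 0.528, 4.72, 1.17 and 1.52% in mice 1 to 4, so that mouse 2 raised its mean. Among the 1238 barcodes within the limits on genes and mitochondrial UMIs, B cell-like clusters held 7.55% and neutrophil-like clusters 4.54%. The median number of detected genes was 704 in cluster 1 and 613 in cluster 4, the main clusters of these classes.

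**Figure D2:**
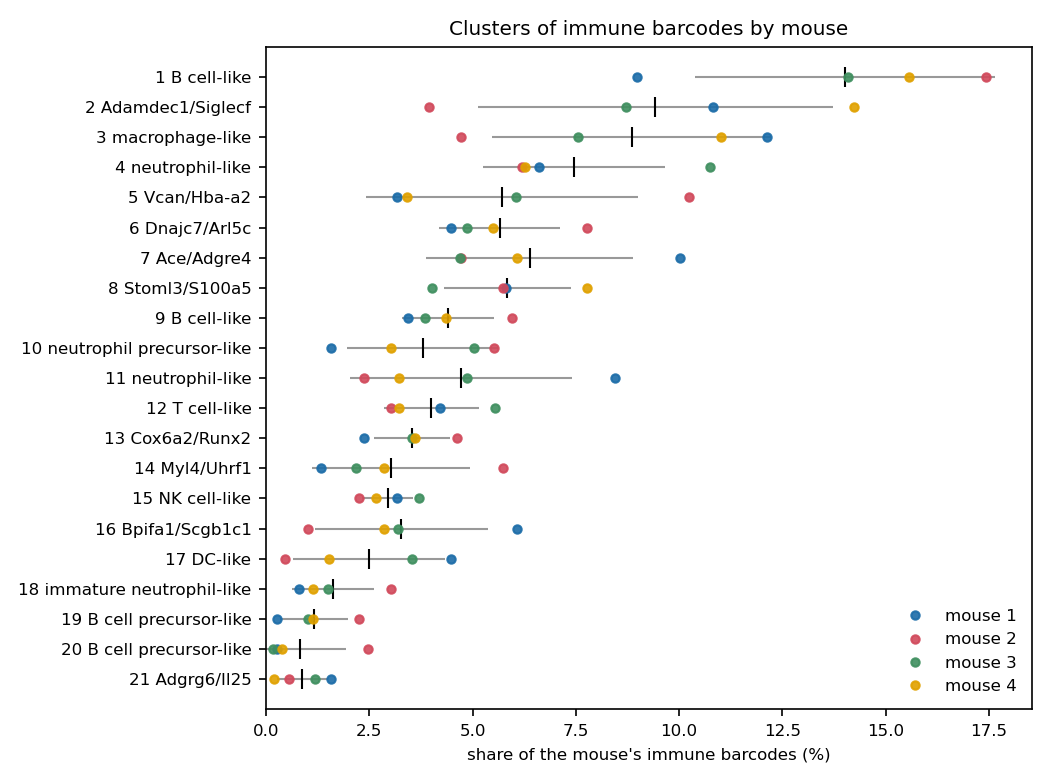
Share of each of the 21 clusters in the immune barcodes of a mouse (x, percent), with 1 point per mouse, a black tick for the mean and a grey line for its SD (n = 4). Cluster 4 sits at 10.7% in mouse 3 and between 6.19 and 6.6% in the others, and cluster 2 spreads from 3.94 to 14.2%.

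**Figure D3:**
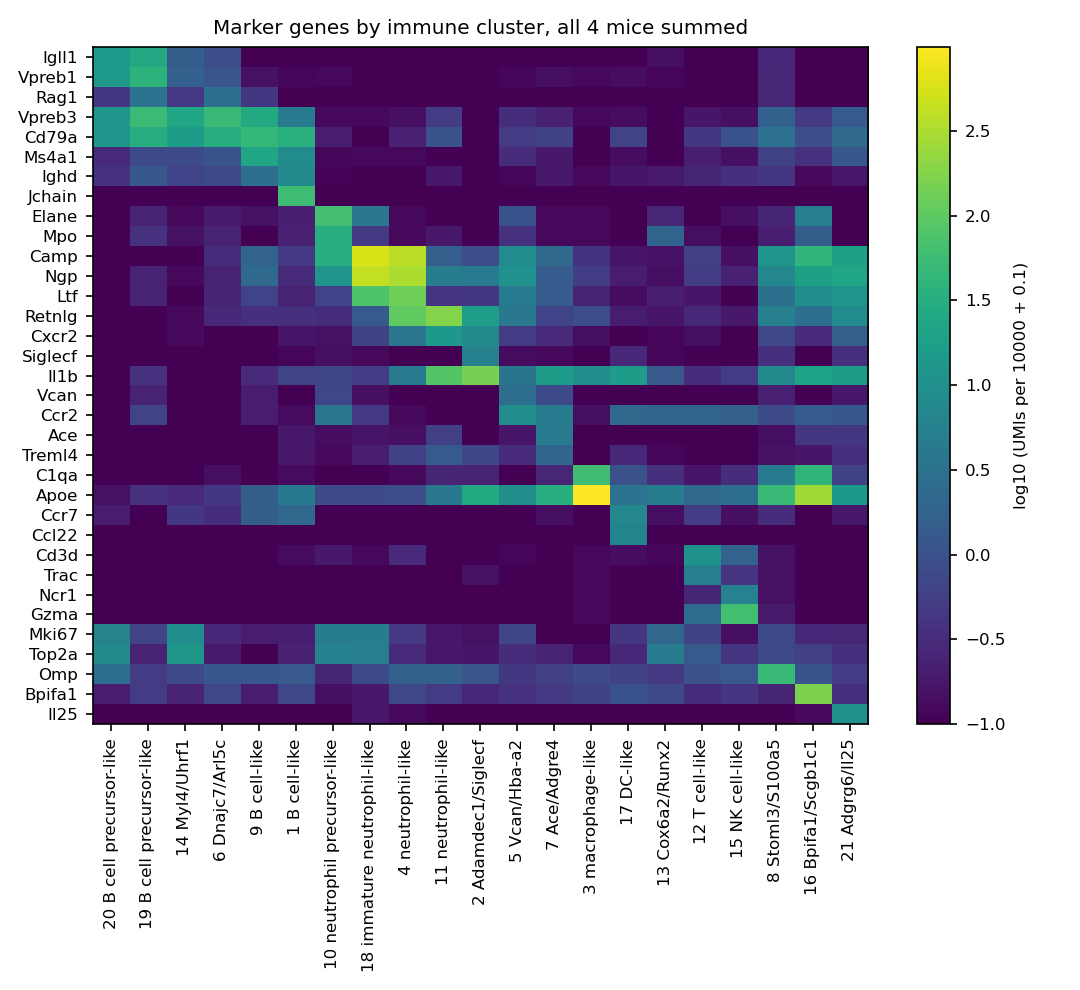
Levels of marker genes (y) in each of the 21 immune clusters (x), all 4 mice summed, with colour for log10 of UMIs per 10000 plus 0.1. Genes of the B lineage are high in the 6 clusters at the left, granule genes in clusters 10, 18 and 4, Cd3d in cluster 12 and Gzma in cluster 15, while Omp, Bpifa1 and Il25 are highest in clusters 8, 16 and 21.

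Genes of successive neutrophil stages were highest in different clusters. Cluster 10, neutrophil precursor-like (101 barcodes), was led by Elane, Mpo, Ctsg, Prtn3 and Mcpt8. Elane, neutrophil elastase, was at 77.0, 41.5, 85.3 and 28.3 UMIs per 10000 in its barcodes of mice 1 to 4, and at 0.637 in the other immune cells pooled. Mpo, myeloperoxidase, was at 62.5, 19.8, 36.9 and 16.9. The median of 10271 UMIs per barcode was the highest of the 21 clusters, and the 12 cell cycle genes summed to 39.8. Mcpt8 and Prss34, proteases of basophils, came almost wholly from mouse 3, where they reached 13.3 and 23.6, and Prss34 was seen in 2.97% of the barcodes of the cluster. All 5 monocyte markers were also detected in cluster 10, with 2 of them 4-fold over the other immune cells and 1 in its top 10. No marker of the immature neutrophil or neutrophil lists was 4-fold there. Cluster 18, immature neutrophil-like (45 barcodes), was led by Ngp, Camp, Lcn2, Chil3 and Cebpe. Camp was at 520, 604, 532 and 588 there, and Cebpe, the transcription factor of the second granule stage, at 6.46 ± 1.5. With 3, 27, 9 and 6 barcodes in mice 1 to 4 these values rest on few cells. Its cell cycle genes summed to 33.2.

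Cluster 4, neutrophil-like (177 barcodes), was led by Ly6g, Mmp9, Mmp8, Ltf and Olfm4, that is by the surface marker of mouse neutrophils and by later granule proteins. In it 6 of the 7 neutrophil markers were 4-fold over the other immune cells, with 3 in its top 10. All 5 immature neutrophil markers were 4-fold too, with 1 in its top 10. Ltf, lactoferrin, was at 126, 135, 128 and 124, and Mmp9, gelatinase B, at 23.2 ± 5.10. Camp was at 375 ± 39.0, and the cell cycle sum was 2.71. Cluster 11, also neutrophil-like (99 barcodes), was led by Acod1, Ifitm1, Slc7a11, Retnlg and Clec4d. Camp was at 0, 1.53, 3.98 and 0 in it. Cxcr2, the receptor that draws mature neutrophils out of the marrow and into tissue, was at 14.8, 13.3, 12.2 and 12.8. Its median of 1005 UMIs per barcode was the lowest of the 21 clusters, and its 12 early genes summed to 129, the highest of the 21.

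Cluster 2 (203 barcodes) was the second largest and stayed unnamed. It was led by Adamdec1, Siglecf, Stfa2l1, Ccrl2 and Igfbp6, of which Stfa2l1 has near-identical stefin copies and is uncertain. Its level of Siglecf, a lectin best known from eosinophils, was 6.10, 5.88, 5.71 and 4.90, and 0.0551 in the other immune cells. The other eosinophil markers, Prg2 and Epx, did not pass the filter of 20 UMIs. Il1b was at 179, 111, 142 and 151 in this cluster, and 5.95 in the other immune cells. S100a8 at 522 ± 55.0 and Cxcr2 at 7.52 ± 0.83 were also measured, but only 2 of the 7 neutrophil markers were 4-fold over the other immune cells, a comparison in which clusters 4, 11 and 18 were among the others. Its share was 10.8, 3.94, 8.72 and 14.2% in mice 1 to 4, lowest in mouse 2.

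**Figure D4:**
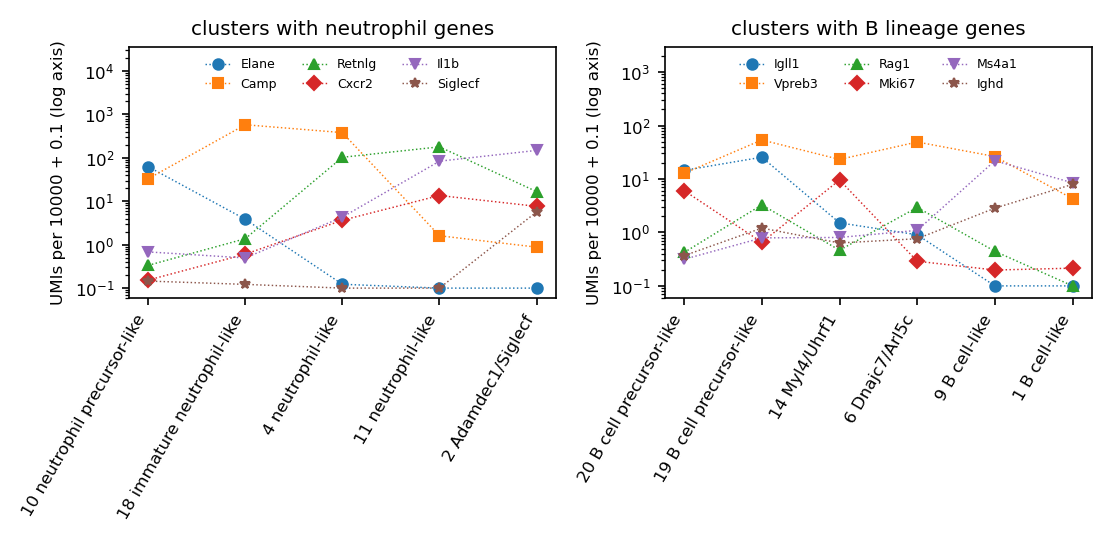
Levels of stage genes in clusters with neutrophil genes (left) and with B lineage genes (right), all 4 mice summed, on a log axis of UMIs per 10000 with 0.1 added. The dotted lines only join points of one gene, and the order of clusters was chosen by hand. Elane is highest in cluster 10, Camp in cluster 18, Retnlg in cluster 11 and Il1b and Siglecf in cluster 2, while Igll1 is highest in cluster 19, Mki67 in cluster 14, Ms4a1 in cluster 9 and Ighd in cluster 1.

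Genes of the B lineage were likewise spread over 6 clusters. Clusters 19 and 20, B cell precursor-like (33 and 26 barcodes), were led by genes of the surrogate light chain and of recombination. In mice 1 to 4 cluster 19 had 1, 20, 6 and 6 barcodes and cluster 20 had 1, 22, 1 and 2. Their values per mouse and SDs therefore rest on few cells, in some mice on 1. In cluster 19, Vpreb1 was at 56.2, 37.1, 39.5 and 36.2, Igll1 at 27.4 ± 7.90 and Dntt, the polymerase that adds bases at the joints, at 24.7 ± 5.10. Cluster 20 had Igll1 at 13.7 ± 7.50, with a cell cycle sum of 62.4 against 5.39 in cluster 19. Mouse 2 gave 84.6% of its barcodes. An odorant receptor gene, Olfr1264, was among its leading genes through a single barcode of mouse 2. Cluster 14 (84 barcodes), led by Myl4, Uhrf1, Pclaf, Bach2 and Ezh2, had the highest cell cycle sum of all, 81.9, and 60.7% of its barcodes came from mouse 2. Cluster 6 (144 barcodes) was led by Dnajc7, Arl5c, Rag1, Fam129c and Vpreb3. Rag1, the recombinase, was at 2.15, 3.00, 2.55 and 3.48 in it, against 0.0780 in the other immune cells, and Vpreb3 at 51.0 ± 5.60.

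The B cell-like clusters 9 and 1 had the genes of later B cells. In cluster 9 (112 barcodes), led by Ms4a1, Iglc1, Ly6d, Tnfrsf13c and Iglc3, Vpreb3 was at 30.1 ± 11 and Ms4a1, which encodes CD20, at 23.6, 20.4, 21 and 26.3. Cluster 1 was the largest, with 355 barcodes. Apart from Jchain, Igha and Igkc, which the 2 plasma cell barcodes brought to its head, it was led by Ighd, Fcmr, Fcer2a, Iglc2 and Bank1. Ighd, the delta heavy chain of mature B cells, was at 5.83, 8.71, 7.75 and 7.84, and Cd74 at 172, 197, 197 and 215. In the precursor-like clusters 10, 19 and 20 and the immature neutrophil-like cluster 18 together, mice 1 to 4 held 11, 118, 46 and 30 barcodes, or 2.90, 13.3, 7.72 and 5.69% of their immune cells. Mouse 2 was highest in these early-stage clusters, in blood and in all immune cells, mouse 1 was lowest in each, and whether these shares are linked was not tested. The share of other immune cells in all barcodes, without these 4 clusters, was 6.86, 13.5, 11.6 and 8.28%, in the same order of mice as the early-stage share. Those other cells include the unnamed clusters 6 and 14, which also held genes of early B cells or of the cell cycle. Cluster 6 had 17, 69, 29 and 29 barcodes in mice 1 to 4, and cluster 14 had 5, 51, 13 and 15.

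Genes of macrophages, monocytes and dendritic cells led or marked clusters 3, 5, 13 and 17, and macrophage genes were also high in cluster 16, described further on. Cluster 7 had all 5 listed monocyte markers detected, but only 1 of them was 4-fold over the other immune cells. Cluster 3, macrophage-like (191 barcodes), had all 7 macrophage markers and was led by Fcrls, Stab1, Apoe, Igf1 and Ctsd. Apoe, the lipid carrier, reached 968 ± 160 UMIs per 10000, against 23.9 in the other immune cells. C1qa was at 65.5, 55.5, 45.3 and 62.5, a narrower spread relative to its level than in all immune cells. The share of cluster 3 was 12.1, 4.72, 7.55 and 11%, in the same order across mice as C1qa in all immune cells. Trem2, a lipid receptor of phagocytes, was at 15.4 ± 2.30, Mrc1, the mannose receptor, at 4.17 ± 1.20 and Cx3cr1, the fractalkine receptor, at 17.2 ± 1.5.

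Cluster 7 (140 barcodes) was led by Ace, Adgre4, Ear2, Clec4a3 and Tppp3. Treml4 was at 1.49, 1.87, 2.57 and 2.24 in it, and Nr4a1, the nuclear receptor needed by patrolling monocytes, at 5.79 ± 0.65. Nr4a1 is also on the list of early genes that dissociation can induce, which summed to 65.8 in this cluster. None of the listed monocyte, macrophage or dendritic cell markers was in the top 10 of cluster 7. Cluster 5 (157 barcodes) was led by Vcan, Hba-a2, Fn1, Hba-a1 and F13a1. Ccr2, the receptor that brings inflammatory monocytes out of the marrow, was at 9.19, 7.65, 11.9 and 8.97 and Ly6c2 at 23.8 ± 2.80. Its haemoglobin transcripts rested on few barcodes, since Hba-a2 was at 0.202, 30.6, 48.8 and 0. Only 7 immune barcodes, 6 in mouse 2 and 1 in mouse 3, had 10% or more of their UMIs in haemoglobin genes, and they held 92.6% of all haemoglobin UMIs of the immune cells. Without the 3 of them that lay in cluster 5, its leading genes were Vcan, Fn1, F13a1, Ccl9 and Ccr2, and 3 of the 5 monocyte markers were 4-fold over the other immune cells.

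Cluster 17, dendritic cell-like (50 barcodes), was led by Ccl17, Ccl22, Fscn1, Mgl2 and Tnip3. H2-Aa was at 90.2, 37.4, 103 and 117. Ccr7, which guides dendritic cells to lymph nodes, was at 12.1, 26.0, 2.74 and 0.758, and Xcr1, of cross-presenting dendritic cells, was seen in mice 3 and 4 alone. With 17, 4, 21 and 8 barcodes in mice 1 to 4 these values rest on few cells. Cluster 13 (90 barcodes) was led by Cox6a2, Runx2, Siglech, Adgrg1 and Flt3, genes of plasmacytoid dendritic cells and of progenitors among them. Scrublet scores, which are high for likely doublets (droplets with more than 1 cell), were in the highest 4% of their mouse for 19 of the 90 barcodes (21.1%). Its haemoglobin genes summed to 76.1 and Hbb-bt was in its top 10, and the part of doublets in it was not tested. Siglech was present in 18.9% of its barcodes and Cd34 in 22.2%, and Kit was at 0.788 ± 0.48.

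Lymphocytes other than B cells were few. Cluster 12, T cell-like (93 barcodes), was led by Cd3d, Trbc2, Cd3g, Trac and Cd3e. Trbc2, a constant gene of the T cell receptor beta chain, was at 15.7, 14.4, 14 and 9.17. Trdc, the constant gene of gamma delta T cells, was at 2.15, 1.90, 4.65 and 2.14 and Cd8b1 at 5.48, 2.37, 1.66 and 2.44, while Cd4 was found in mouse 3 alone, at 1.33. Cxcr6, which is typical of T cells that stay in tissue, was at 4.45 ± 2.30. Cluster 15, NK cell-like (68 barcodes), was led by Gzma, Gzmc, Gzmb, Prf1 and Ncr1. Gzma, granzyme A, was at 50.9, 107, 38.9 and 78.6, Ccl5 at 138 ± 46.0 and Ifng, interferon gamma, at 2.28 ± 1.60.

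In 3 further clusters the leading genes were those of other cell types, and together they held 223 barcodes (9.33%). Cluster 8 (138 barcodes) was led by Stoml3, S100a5, Omp, Nsg1 and Gnal, genes of mature olfactory neurons. Omp, the olfactory marker protein, was at 50.9, 52.5, 39.0 and 56.0 there, beside 72.1 ± 3.78 in retained mature neurons. The same barcodes had a summed level of 37.0 for the general immune list, beside 98.2 in all immune cells and 0.112 in retained mature neurons. The median UMI count was 6330.5, and 76 of the 138 barcodes (55.1%) were in the highest 4% of Scrublet doublet scores of their mouse, beside 7.57% of all immune barcodes. The part of doublets in this cluster was not tested. Cluster 21 (19 barcodes) was led by Adgrg6, Il25, Rgs13, Sh2d6 and Trpm5, genes of tuft-like chemosensory cells. Its Ptprc level was 3.71, 2.20, 4.19 and 2.13 in mice 1 to 4, from 6, 5, 7 and 1 barcodes, and 11 of its 19 barcodes had such doublet scores. Cluster 16 (66 barcodes) was led by the secreted proteins Bpifa1, Scgb1c1, Wfdc18, Bpifb3 and Gpx6, which differed strongly between mice. Bpifa1 was at 4.98, 915, 3.16 and 2.91 and Scgb1c1 at 174, 0.881, 83.9 and 519. Of the 7 macrophage markers 6 were detected in it and 5 were 4-fold over the other immune cells, with none in its top 10, while 1 of 3 gland and 1 of 3 sustentacular markers were 4-fold. C1qa, at 39.7 ± 5.90, and Cd74, at 250 ± 62.0, were steadier in it.

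Plasma cells were almost absent, yet 2 barcodes carried most of the immunoglobulin transcripts. One in mouse 1 had 24648 UMIs, of which 12731 were Igkc, 3874 Igha and 2410 Jchain, so that 78.3% were immunoglobulin or J chain. One in mouse 3 had 17179 UMIs, with 7991 Igkc, 2684 Ighm and 1022 Jchain, or 69.0%. These barcodes held 100% of the 3432 Jchain UMIs of all immune cells, 99.6% of the Igha UMIs, 60.2% of the Igkc UMIs and 28.2% of the Ighm UMIs. Jchain was accordingly at 14.6, 0, 3.71 and 0 in the immune cells of mice 1 to 4. Mzb1, a chaperone of plasma cells, had no UMI in either barcode and 9 UMIs in the whole series.

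Light chains were read in the B lineage as a whole, in the 780 immune barcodes with a UMI of Cd79a other than these 2. A light chain constant gene was seen in 721 of them, and in 67 of 1609 immune barcodes without Cd79a (4.16%) and 209 of 15859 retained barcodes (1.32%), which is the background. Kappa alone was found in 207, both chains in 491 (68.1%) and lambda alone in 23, or 3.33% ± 0.995 per mouse (SD, n = 4). With at least 3 UMIs asked of a chain the lambda share was 4.55%, and with 10 UMIs 5.84%. The share with both chains fell to 45.3% and 14.7% at these minimums. Of 520 barcodes with 10 or more light chain UMIs, kappa gave at least 80% in 322 (61.9%), lambda gave at least 80% in 27 (5.19%) and 171 (32.9%) lay between. Barcodes of that last kind were 40.2% in cluster 1 and 43.9% in cluster 9, but 12.5% in cluster 6 and 3.23% in cluster 14. Cluster 8, led by genes of olfactory neurons, held 30 of the 520 barcodes, and 33.3% of its 30 were of that kind. The lambda constant genes are near-identical copies, and a share of their reads may have been assigned to another copy or lost.

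Odorant receptor transcripts were found in many immune barcodes, and most of the UMIs lay in the 3 clusters led by genes of other cell types (8, 16 and 21). How these UMIs divide between the 3 clusters was not tested. Listed neuron genes summed to 184 UMIs per 10000 in cluster 8, 15.3 in cluster 21 and 3.16 in cluster 16. The value of cluster 16 lay within the range of the other immune clusters, from 0.574 in cluster 10 to 8.96 in cluster 20. At least 1 receptor UMI was present in 29.3% ± 6.26 of immune barcodes (SD, n = 4 mice, median depth 2144 UMIs), in 26.9% ± 7.76 of Mv2 microvillar cells (median 5081 UMIs), which should lack receptors, and in 98.2% ± 0.256 of mature neurons. The immune share differed from that of Mv2 by 2.33 percentage points (exact sign-flip permutation test, p = 0.5). With each barcode thinned to 1000 UMIs, which left out 419 immune barcodes, the shares were 16.8% ± 3.01, 7.11% ± 1.92 and 95.5% ± 0.285. Immune barcodes were then higher than Mv2 in 4 of 4 mice (exact permutation p = 0.13, the smallest possible). Without the clusters led by genes of other types the thinned immune share was 11.8% ± 1.04, beside 10.7% ± 3.81 in HBC2 basal cells, 8.51% ± 4.11 in GBC basal cells, 8.28% ± 0.863 in supporting cells and 7.11% in Mv2. The share with an Omp UMI, thinned in the same way, was 7.25% ± 2.27 without these clusters, beside 9.60% ± 2.23 in HBC2, 8.25% ± 3.84 in supporting cells, 5.46% ± 2.54 in Mv2 and 5.41% ± 3.70 in GBC. None of these differences from the other types was tested. Summed receptor levels were 5.40, 9, 6.37 and 11.8 UMIs per 10000 in all immune cells of mice 1 to 4. They were 0.814, 1.41, 1.15 and 0.831 without those clusters, beside 1.06, 1.97, 0.809 and 0.623 in Mv2, and beside means of 1.51 ± 1.18 in GBC, 4.56 ± 2.51 in supporting cells and 4.85 ± 1.43 in HBC2 (SD, n = 4). Of 143 immune barcodes with 5 or more Omp UMIs, 133 lay in the 3 clusters.

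**Figure D5:**
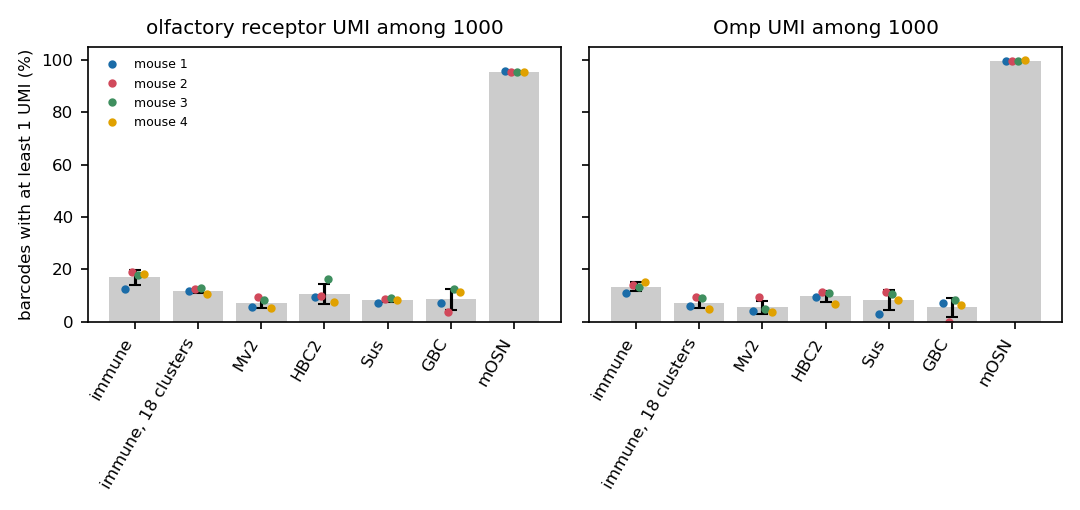
Percent of barcodes (y) with at least 1 odorant receptor UMI (left) or Omp UMI (right) after thinning to 1000 UMIs, in all immune cells, in the 18 immune clusters not led by other types' genes, and in retained types (x). Bars are means with SD and points are mice (n = 4). The receptor shares are 95.5% in mature neurons, 16.8% in all immune cells, 11.8% in the 18 clusters and 7.11% in Mv2.

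Immune transcripts outside the immune clusters differed between retained types. Lyz2 was at 13.3 ± 4.14 in Mv2 microvillar and 5.91 ± 3.16 in HBC2 basal cells, and Plac8, of the monocyte list, reached 6.61 in Mv1 microvillar cells. Among these types, Ptprc was highest in the Mv1 microvillar cells, at 0.145, 0.633, 0.830 and 0.356 in mice 1 to 4, while Tyrobp was at 0 in Mv1 in all 4 mice. Cd74 was highest in HBC1 basal cells, at 2.10, 1.95, 8.49 and 2.59, and mouse 3 also had the highest values in HBC2, Mv2 and supporting cells. S100a8 was highest in supporting cells, at 1.81 ± 1.84, an error as large as the mean.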

How the data were processed

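Single-cell libraries (10x Genomics Chromium 3′, 1 per mouse, 4 mice) were aligned by the authors with Cell Ranger 6.0.1 to GRCm38, with an Ensembl annotation in which the 3′ ends of odorant receptor genes were redrawn. The matrices deposited by the authors held UMI counts per gene, not normalised, for 21809 barcodes, and library totals of 23157467 to 32382702. A table of barcodes, also deposited, listed counts of detected genes and of UMIs, the percent of mitochondrial UMIs, the authors' preliminary clusters, made on integrated data, and the type of each retained barcode. The authors removed clusters of immune, blood and high-mitochondrial cells and then barcodes over 10% mitochondrial UMIs or under 1000 genes.

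Immune barcodes came from the preliminary label. The members, gene lists and tests were chosen with earlier results of these data known. Counts were summed per mouse and expressed per 10000 UMIs. A gene was called higher or lower at a 4-fold ratio in each mouse after adding 0.01, among genes with at least 20 UMIs. This call was also run on simulated counts. The genes changed there had at least 20 UMIs expected in the smallest sum, so detection of lower genes was not checked. Named genes were the 12 largest and 6 most negative ratios among called genes with at least 1 UMI per 10000, members of the lists, and the 5 leading genes of each cluster, with genes of interest within a cluster added after their values were seen. Because the deposited table has 1 immune label, barcodes were clustered again with Leiden (leidenalg 0.10.2, 2000 variable genes, 20 components, 15 neighbours, resolution 1). Receptor and immunoglobulin or T cell receptor variable genes were left out, and mice were not integrated. Names may differ from those in the study. The automatic threshold of Scrublet (scanpy 1.11.5) called 40, 7, 29 and 47 barcodes (0.123 to 0.783% of a mouse's barcodes, at an expected rate of 5%). Its calls were therefore not used, and the highest 4% of scores (780 barcodes, ties at the limit left out) served as an alternative. No barcode was removed as a doublet. Medians and shares were compared by exact two-sided sign-flip permutation tests over mice. TMM (edgeR 4.0.16) and DESeq2 1.42.0 gave other scalings. Other alternatives were the limits on genes and mitochondrial UMIs, other folds, filters and added constants, retained non-neuronal cells as the reference, thinning, stricter UMI minimums and leaving out each mouse.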

Additional observations from a re-analysis of the deposited data

Results flagged for a closer look

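In 4 mice, a gap test (Dixon, 95% level) was run on 50 sets of values, and 2 were past it. Chance alone marks about 1 set in 20. The share of cluster 4, neutrophil-like, was 10.7% of the immune barcodes in mouse 3 and 6.19 to 6.6% in the other mice. The share of cluster 20, B cell precursor-like, was 2.47% in mouse 2 and 0.168 to 0.380% in the others. That is 22 barcodes in mouse 2 and 1, 1 and 2 in mice 1, 3 and 4. Outside the immune label, 1 barcode of mouse 4, in the clusters with a high mitochondrial percentage, held 160 Jchain UMIs. Its 4385 UMIs included 2136 of Igkc and 1082 of Igha, and 2.65% were mitochondrial.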

How the results depend on the processing

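Each mouse is a library of its own, with no batch in the labels, and depth limits the low genes, since 419 immune barcodes held under 1000 UMIs. There was 1 group and so no pairing of samples across groups, and the contrasts between cell types were taken within each mouse. The 2-fold limit gave 2279 higher and 4305 lower genes, and adding 0.1 gave 468 and 427. No gene changed direction under any alternative in which it was called. Without the 3 clusters led by genes of other types (an alternative chosen after seeing the data) 2524 genes were lower. Against retained cells other than neurons and their precursors 980 genes were higher and 1275 lower, of which 855 and 379 were among the 1238 and 1572, and the log2 ratios were 6.49 for Ptprc, 5.86 for Cd74 and 7.70 for Tyrobp. That of Tyrobp was 9.18 without the highest Scrublet scores. The share of immune barcodes with a receptor UMI was 16.8% thinned, 11.2% at 2 UMIs or more and 37.5% within the limits on genes and mitochondrial UMIs. For Omp these were 13.3, 7.96 and 28.2%, and 16.4% without the 3 clusters. The lambda share was 4.55 and 5.84% at 3 and 10 UMIs per chain. Within the limits the mitochondrial difference reversed to -0.028, and the log2 differences in UMIs and genes shrank from -1.26 to -0.28 and from -1.19 to -0.46. B cell-like clusters then held 7.55%, neutrophil-like clusters 4.54%, the neutrophil precursor-like cluster 7.15%, the NK cell-like cluster 3.57%, the immature neutrophil-like cluster 2.90% and unnamed ones 54.6% of the immune barcodes. The causes were not tested, and the other alternatives kept the direction of each difference, while shares stayed within the SD between mice and counts of genes and clusters within 1.5 times.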

Other observations

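In the T cell-like cluster (93 barcodes), Foxp3, the regulator of suppressive T cells, had 3 UMIs, all in mouse 3, and Il17a, a cytokine of barrier T cells, had 7 UMIs, and these genes were chosen after their values were seen. Gata2, a regulator of progenitors, mast cells and basophils, was at 0.697 ± 0.43 UMIs per 10000 in cluster 13 (SD, n = 4 mice), against 0.0630 in the other immune cells.

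Of 12 genes in the iron and haem list, 1 was at least 4-fold higher in immune cells in every mouse, beside 5.94% of all genes. It was Slc40a1, which encodes ferroportin, used by macrophages to return iron to the blood, at 0.295 ± 0.0781 against 0.00697 ± 0.003. The retained level lies below the 0.01 added to both sides, so the ratio depends on that constant. The median log2 ratio of that list was 1.38, beside -0.41 over all genes. Its haemoglobin genes weigh on this value, and 7 barcodes held 92.6% of the haemoglobin UMIs of immune cells.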
